A study of Mus musculus with 13 samples.

Results

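To examine how the small RNA population differed between the last stages of meiosis and the haploid stage, a small RNA library from FACS-purified round spermatids (RS) was compared with one from pachytene/diplotene spermatocytes (PD; the label spells the stage pachytene/diptotene). The 2 libraries are all that the series holds for these stages, out of 13 samples, and the comparison covers the 262 retrotransposon consensus sequences listed for both and the 4026071 distinct sequences of 24–33 nt with at least 1 read in PD or RS. The study profiled small RNAs in sorted mouse male germ cells from spermatogonia onward and examined wild-type (WT) and Pld6 knockout cells, Pld6 being a mitochondrial outer membrane protein needed to make piRNAs. Both stages came from C57BL6/J mice at postnatal 3–4 weeks, were sorted by Hoechst-33342 staining, and were sequenced as total RNA with the TruSeq Small RNA kit in 50-bp single-end runs. The labels give no genotype for either sample, while the deposited tables of both are marked WT, and the labels do not say how many animals were pooled.

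Since each stage is 1 library, no test between the stages was possible and every difference below is a description of these libraries. The intervals given are 95% intervals that cover counting error only, and reads copied by PCR are not independent molecules. In the same set of libraries without technical replicates, leptotene/zygotene spermatocytes, an earlier stage of meiosis, have 2 biological replicates, called LZ1 and LZ2 here. Like PD and RS, they came from mice at postnatal 3–4 weeks and were sequenced in 50-bp runs. Their strain and genotype are not stated here. The distance between LZ1 and LZ2 is given beside the results as a gauge of how far libraries of the same stage lay apart. The replicate pairs of the technical-replicate set, whose tables carry a tag naming a Pld6 knockout, were not used here.

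piRNAs (24- to 33-nt small RNAs) are bound by PIWI proteins and are cut from long single-stranded precursors. In the mouse testis, PIWIL2 (MILI) carries shorter piRNAs and PIWIL1 (MIWI), which appears at the pachytene stage and remains in round spermatids, carries longer ones. Pachytene piRNAs are mostly made from long noncoding precursors and few of them match retrotransposons, whereas piRNAs antisense to retrotransposons can guide cleavage of retrotransposon RNA. Primary piRNAs begin with U, and piRNAs made by PIWI cleavage of a partner tend to carry A at position 10.

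The sequences below show the main difference between the libraries at single 5′ ends. Each pair holds the same RNA 5′ end in a short and a long form, both of which match the spliced sequence of 1 annotated gene (GENCODE vM21, build GRCm38). Sequences are written 5′ to 3′ as DNA letters, as they were deposited, and the capitals mark the bases by which the long form extends beyond the short one. Matches elsewhere in the genome were not searched for.
Gm49794 end 1, short form: taccagttggataatgcacttcctatt
Gm49794 end 1, long form: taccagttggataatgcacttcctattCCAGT
Gm49794 end 2, short form: ttaaatgagatatagtcactgagcttc
Gm49794 end 2, long form: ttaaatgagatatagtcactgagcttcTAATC
Gm10505, short form: taggatgtgagaaggctcaagacacc
Gm10505, long form: taggatgtgagaaggctcaagacaccCAGA
1700097M23Rik, short form: tagaacacactgtggattaaacttga
1700097M23Rik, long form: tagaacacactgtggattaaacttgaAATA

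The 2 ends of Gm49794, a long intergenic noncoding RNA, lie in exon 1 of 2 on the plus strand. End 1 is at chr17:27358606-27358632 in the short form and chr17:27358606-27358637 in the long form, and end 2 is at chr17:27356819-27356845 and chr17:27356819-27356850. The end in Gm10505, a noncoding processed transcript, lies in exon 2 of 2 at chr17:27344124-27344149 and chr17:27344124-27344153 on the plus strand. The end in 1700097M23Rik, a locus annotated as still to be experimentally checked, lies in its single exon on the minus strand at chr6:81895184-81895209 and chr6:81895180-81895209.

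At all 4 of these ends the short form was less abundant in RS than in PD and the long form more abundant. Levels are given as RPM (reads of the sequence scaled to all 24–33 nt reads of the library). The short form at end 1 of Gm49794 had 65.4 RPM in PD and 19.4 RPM in RS, while its long form had 58.1 RPM and 110.7 RPM. At end 2 the short form had 59.6 RPM and 15.1 RPM, and the long form had 34.1 RPM and 65.5 RPM. The total over all lengths at these ends hardly differed, with 190.7 RPM in PD and 189.8 RPM in RS at end 1, and 167.0 RPM and 158.0 RPM at end 2. In Gm10505 the short form had 72.1 RPM in PD and 18.6 RPM in RS and the long form 27.4 RPM and 41.8 RPM, while the total of that end was lower in RS, at 119.3 RPM against 228.8 RPM. In 1700097M23Rik the short form had 45.9 RPM and 13.3 RPM and the long form 39.5 RPM and 79.3 RPM. In LZ1 and LZ2 the short form exceeded the long form at each end, as at end 1 of Gm49794 with 118.5 RPM and 139.7 RPM short against 10.5 RPM and 3.64 RPM long. These pairs were chosen because their lengths differed, so they illustrate the difference and do not measure how common it was.

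The same difference was seen over the whole libraries. The PD library held 13290381 reads, of which 84.50% (interval 84.48% to 84.52%) were 24–33 nt, and the RS library held 12541019 reads, of which 83.10% were. Among 24–33 nt reads, those of 25–28 nt made up 34.6% in PD and 18.04% in RS, and those of 29–32 nt made up 61.0% and 79.1%. RS was therefore 16.5 percentage points lower in the short class and 18.2 points higher in the long class, where LZ1 and LZ2 differed by 0.908 and 2.00 points. Reads of 26 nt, the length most reduced in share, made up 9.68% in PD and 3.81% in RS, and reads of 30 nt, the most common length in both, made up 23.4% and 31.98%. The read-weighted mean length was 28.8 nt in PD and 29.5 nt in RS, against 27.4 nt in both LZ libraries.

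**Figure D1:**
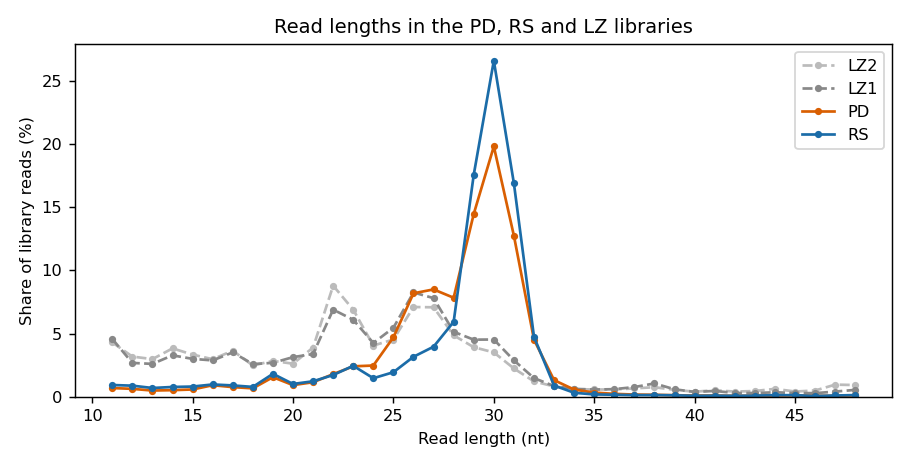
Share of all reads of a library (y axis, %) at each read length (x axis, nt) in PD, RS, LZ1 and LZ2, 1 library each. PD had a broad shoulder at 25–28 nt beside its 30 nt peak, while RS held most of its reads at 29–31 nt and little at 25–28 nt.

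The base composition differed much less. U was the first base of 86.6% of 24–33 nt reads in PD and 86.9% in RS, and A was at position 10 in 29.8% and 32.02%. Among reads that did not begin with U, A at position 10 made up 36.9% in PD and 39.7% in RS, against 26.7% and 28.8% in LZ1 and LZ2. The difference of 2.27 points in A at position 10 was close to the distance between the LZ libraries, which had 26.2% and 28.2%.

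The stage labels were checked against miRNAs, matched to the mature sequences of RefSeq (GRCm38). miR-34b and miR-449a, of the miR-34/449 family found in meiotic and postmeiotic germ cells, were higher in RS than in PD and higher in both than in LZ. The 3 members of this list that could be matched summed to 135.9 RPM of the library in PD and 253.6 RPM in RS, against 42.3 RPM and 61.2 RPM in LZ1 and LZ2. The seed, bases 2 to 8, is in capitals, and miR-34b-5p and miR-449a-5p share it.
mmu-miR-34b-5p: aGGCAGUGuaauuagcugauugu
mmu-miR-449a-5p: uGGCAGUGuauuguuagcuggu
mmu-miR-34b-3p: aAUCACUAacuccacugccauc
mmu-miR-34b-5p had 11.3 RPM in PD and 37.4 RPM in RS, and mmu-miR-449a-5p had 92.9 RPM and 161.5 RPM. The 4 matched of 6 miRNAs of Sertoli, Leydig and other somatic cells summed to 4.89 RPM in PD and 7.18 RPM in RS, with miR-214-3p at 0 in both, against 79.6 RPM and 195.3 RPM in the LZ libraries. The 6 spermatogonial miRNAs summed to 96.2 RPM and 90.6 RPM, mostly from miR-20a-5p, against 116.8 RPM and 593.0 RPM in LZ1 and LZ2. The 4 blood miRNAs summed to 0.752 RPM and 2.31 RPM, against 1.67 RPM and 4.4 RPM. Relative to library reads, the matched somatic and blood markers were thus low in both libraries, and the spermatogonial sum was below that of both LZ libraries. mmu-miR-34c-5p, mmu-miR-143-3p and mmu-miR-145a-5p were also on these lists. miRNAs as a whole made up 0.940% of reads in PD and 1.12% in RS, and 7.69% and 11.2% in LZ1 and LZ2. The comparison of the marker sums with LZ therefore depends on the scaling to library reads. Purity relative to LZ cannot be read from it.

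To examine whether PD and RS contained the same piRNAs, exact 24–33 nt sequences were compared after both libraries were thinned to 6865240 such reads. The libraries shared 544448 distinct sequences, which were 29.99% of the distinct sequences in PD and 33.4% of those in RS. The shared sequences held most of the reads, 77.4% in PD and 81.5% in RS. LZ1 and LZ2 shared 25.96% and 23.1% of their distinct sequences at the same depth, holding 69.96% and 64.9% of their reads. The overlap of PD and RS was thus not smaller than that of LZ1 and LZ2, but the pairs were not alike in the number of distinct sequences. At this depth PD and RS held 1815409 and 1632368, and LZ1 and LZ2 held 2385992 and 2678873. Overlap depends on this number, so the LZ pair is not a like yardstick here. The unshared sequences were mostly rare, and 87.4% of those found only in PD and 89.2% of those found only in RS had a single read.

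No abundant sequence was entirely lost or gained. Of 10887 sequences with at least 10 RPM in PD, 0 were without a read in RS, and of 10774 such sequences in RS, 0 were without a read in PD. A count of 0 reads in RS allows up to 0.288 RPM, and in PD up to 0.267 RPM. At least 5 RPM, 21 sequences of PD had no read in RS and 1 sequence of RS had none in PD, and at least 1 RPM these counts were 1931 of 112708 and 391 of 103407. Between LZ1 and LZ2, 29 sequences with at least 10 RPM in LZ1 had no read in LZ2, and 0 such sequences of LZ2 had none in LZ1. With at least 1 RPM, 1619 of 100341 sequences of LZ1 had no read in LZ2 and 854 of 101545 of LZ2 had none in LZ1. The highest lost sequence had 8.28 RPM in PD, from 93 reads, and the highest gained one had 5.28 RPM in RS, from 55 reads.

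The lost and gained sequences differed in length and in their presence at the earlier stage. Among the 1931 lost sequences, 55.9% were 24–28 nt, against 40.9% of all PD sequences with at least 1 RPM, and 87.5% had reads in both LZ libraries, against 89.3%. Among the 391 gained sequences, 85.4% were 29–32 nt, against 75.2% of all RS sequences at that level, and 19.4% had reads in both LZ libraries, against 77.4%. The gained sequences were thus seldom seen in the LZ libraries, and the lost ones had reads there nearly as often as other PD sequences. However, the gained sequences were picked for having no read in PD and were mostly 29–32 nt. The comparison set was not matched for this, so their low share in LZ cannot be read as a trait of their own.

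The most abundant sequences were largely the same in both libraries. Of the 10 most abundant sequences 7 were common to both lists, as were 66 of 100, 636 of 1000 and 6548 of 10000, which compares with 6, 67, 691 and 7018 between LZ1 and LZ2. PD and LZ1 shared 0 of 10 and 17 of 100. The top 10 held 2.201% of 24–33 nt reads in PD and 3.90% in RS, and the top 1000 held 15.6% and 20.9%, so reads were more concentrated on few sequences in RS.

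The 3 most abundant sequences kept the same rank in both libraries and were all more abundant in RS. The first, of 31 nt, matched an annotated snRNA and had 6932 RPM in PD and 13484 RPM in RS (ratio 1.95, interval 1.928 to 1.962), against 506.9 RPM and 288.0 RPM in the LZ libraries. The second, of 29 nt, had 3397 RPM and 6874 RPM, and the third, of 30 nt, had 3091 RPM and 4817 RPM. Neither of these matched an annotated transcript. All 10 sequences with the highest mean level were higher in RS, by 1.36- to 2.12-fold, and 9 of them began with U. The tenth lies in Gm5878 and is printed with the gene results.

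The order of sequences by level differed, among the more abundant ones too. Across the 14523 sequences with at least 10 RPM in either library, Spearman's correlation between PD and RS was 0.41, and that between LZ1 and LZ2 was 0.50 over 9606 sequences selected in the same way. This is a description of these libraries, since the points share their libraries and depth. Among 24–28 nt sequences alone it was 0.49 and among 29–33 nt sequences alone 0.62, each higher than over all lengths together, whereas the LZ pair gave 0.51 and 0.46. When reads were instead grouped by their first 20 nt, so that all forms of a 5′ end count together, it was 0.64 between PD and RS and 0.61 between LZ1 and LZ2. Among exact sequences with at least 100 RPM in either library, the correlation was 0.40 over 744 sequences of PD and RS. The LZ pair gave 0.49 over 530.

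**Figure D2:**
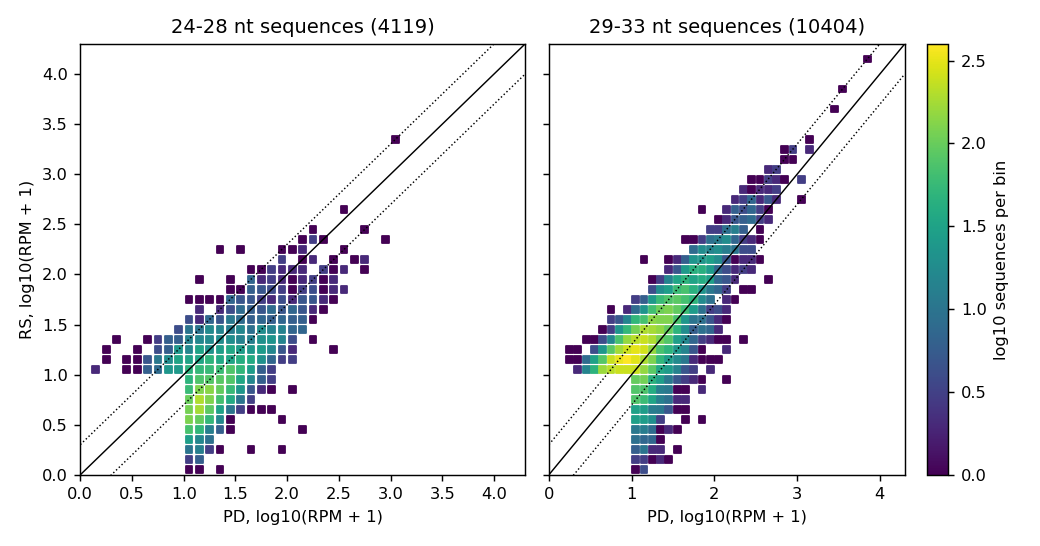
Sequences with at least 10 RPM in PD or RS, by level in PD (x axis) and RS (y axis), both as log10(RPM + 1), with colour for the number of sequences in a bin (log10 scale), for 24–28 nt on the left and 29–33 nt on the right. The solid line marks equal level and the dotted lines a 2-fold difference. The 4119 shorter sequences lie mostly below the equal line and the 10404 longer ones mostly above it.

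More than 2-fold differences, on the scale of log2(RPM + 1), were common in both directions. Of the 14523 sequences, 3542 (24.4%) were lower in RS and 2848 (19.6%) were higher, 44.0% in all, while 36.3% of sequences differed by this much between LZ1 and LZ2, 13.2% lower in LZ1 and 23.1% higher. Between PD and RS the direction followed length. Of 3878 sequences of 25–28 nt, 2575 were more than 2-fold lower in RS and 97 higher, with a median log2 difference of −1.35. Of 10286 sequences of 29–32 nt, 789 were lower and 2688 higher, with a median of 0.58.

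**Figure D3:**
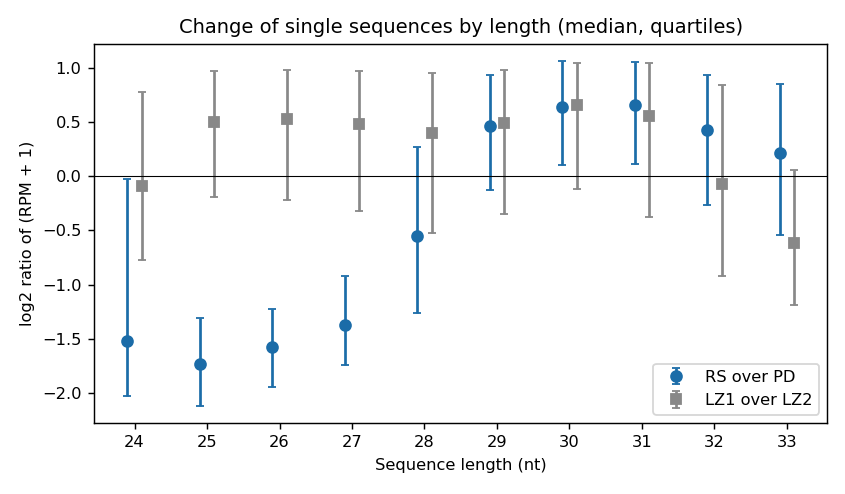
Median log2 ratio of (RPM + 1) at each sequence length (x axis, nt) for RS over PD (circles) and LZ1 over LZ2 (squares), with bars from the lower to the upper quartile over sequences. RS over PD goes from −1.73 at 25 nt to 0.65 at 31 nt, and LZ1 over LZ2 stays between −0.61 and 0.65 with no step at 28 nt.

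The step lay at 28 nt. The median log2 difference was −1.57 at 26 nt and −1.38 at 27 nt, then −0.55 at 28 nt and 0.46 at 29 nt, and it was highest at 31 nt with 0.65. Between LZ1 and LZ2 the medians from 25 to 31 nt were all between 0.40 and 0.65. When each sequence was scaled to the reads of its own length class (24–28 or 29–33 nt), the medians of the classes were −0.18 and 0.13, and 5600 sequences were lower and 5088 higher among 30555 that passed the minimum on that scale.

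The sequences lower in RS had higher levels in leptotene/zygotene cells than the sequences higher in RS, and they were also shorter. The 3542 lower sequences had a median length of 27 nt and median levels of 17.2 RPM in PD, 4.99 RPM in RS, 15.01 RPM in LZ1 and 7.72 RPM in LZ2. The 2848 higher sequences had a median length of 30 nt and median levels of 7.21 RPM in PD, 19.8 RPM in RS, 1.40 RPM in LZ1 and 1.17 RPM in LZ2. Both LZ levels exceeded that of PD in 13.5% of the lower and 2.46% of the higher sequences. Over all tested sequences, the median of the mean LZ level was 12.9 RPM at 24–27 nt and 2.72 RPM at 29–32 nt. No comparison at matched length was made. U began 94.9% of the lower sequences and 89.5% of the higher ones, and A was at position 10 in 24.8% and 31.04%. These bulk libraries do not tell apart fewer cells that make a sequence from fewer copies in each cell.

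The largest single differences, among sequences with at least 100 RPM in either library, were not confined to short sequences. The 5 with the largest fall were of 26, 26, 26, 27 and 30 nt, and the first of them, 27 nt long and matching several genes, had 133.7 RPM in PD but 1.92 RPM in RS. The other four had 101.2 to 135.5 RPM in PD and 6.43 to 14.97 RPM in RS and matched no annotated transcript. Of the 5 with the largest rise, the first had 12.4 RPM in PD and 126.0 RPM in RS (31 nt, no annotated transcript). The third lies in exon 1 of 5 of Gm14244, a noncoding gene annotated as antisense, at chr2:127692460-127692490 on the plus strand, and had 484.2 RPM in RS and 76.2 RPM in PD. The fourth lies in the 3′ UTR of Cbl, which encodes an E3 ubiquitin ligase, and had 26.4 RPM and 132.5 RPM. The fifth, of 24 nt, matched a miRNA transcript and was far higher in LZ1 and LZ2, at 3335 RPM and 5789 RPM, than in PD at 38.4 RPM or RS at 173.3 RPM.

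To separate longer forms of the same piRNAs from a change in which piRNAs were present, lengths were compared at shared 5′ ends, defined by the first 20 nt. At 10325 ends with at least 10 RPM in both libraries, the mean length was greater in RS at 7897 (76.5%), with a median difference of 0.24 nt. Between LZ1 and LZ2, LZ1 was longer at 51.3% of 7911 ends, with a median difference of 0.0064 nt. Lengths differed by more than 0.5 nt at 3099 ends in the direction of RS and at 134 in the direction of PD.

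The difference in length depended on the length in PD. It was 0.77 nt at the median for the 1212 ends with a PD mean of 27 to 28 nt, where RS was longer at 95.8%, and 0.72 nt for 26 to 27 nt. It was 0.43 nt for 28 to 29 nt, 0.14 nt for 29 to 30 nt and 0.037 nt for 30 to 31 nt. For the 165 ends with a PD mean of 24 to 26 nt it was 0.24 nt, so it did not grow steadily toward shorter ends. The bins are set by the PD length, which itself enters the difference.

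Longer forms made up part of the difference in mean length and the mix of 5′ ends the rest. The 431733 ends with a read in both libraries held 92.0% of PD reads and 93.2% of RS reads and differed by 0.65 nt in mean length. Of this, 0.28 nt (43.4%) came from length within ends and 0.37 nt (56.6%) from a different weight of the ends. Counted by end, 2986 of 16193 ends (18.4%) were more than 2-fold lower in RS and 1644 (10.2%) higher. Between LZ1 and LZ2, 1549 of 13054 ends (11.9%) were lower in LZ1 and 2107 (16.1%) higher. Differences of this size were thus about as common between libraries of the same stage. Ends with a PD mean of 26 to 27 nt were lower in RS in 66.9% of cases, and those with 30 to 31 nt in 5.40%, with 20.8% higher.

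The last base was examined in reads that matched an annotated transcript, structural RNAs aside, over all but possibly the last base. That base differed from the transcript in 17.8% of such reads in PD (interval 17.7% to 17.9%) and 20.7% in RS (20.6% to 20.7%), against 13.4% and 14.9% in LZ1 and LZ2. At matched length the direction varied, with 14.1% in PD and 12.6% in RS at 28 nt, 12.3% and 12.1% at 29 nt, and 31.7% and 34.7% at 31 nt. Most of these bases were U, with 12.5% of all such reads in PD and 14% in RS, but at 28 nt U made up 9.50% and 6.84% and it was also lower in RS at 27, 29, 30 and 32 nt. The pooled difference thus did not hold at every length. A G at this place was found in 0.343% of reads in PD and 0.877% in RS, against 0.329% and 0.467% in LZ1 and LZ2, and the share in RS was between 0.804% and 0.991% at each length from 26 to 32 nt. Among reads identical up to the last base, the share that ended in a base other than the one most common in PD and RS was 12.7% in PD, 14.1% in RS, 14.2% in LZ1 and 16.4% in LZ2, and the same measure at position 20, taken as a control within the read, was 0.2505% in PD and 0.244% in RS.

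Most 24–33 nt reads of both libraries had no exact match in the annotated transcripts. This was so for 87.4% of reads in PD and 87.6% in RS, compared with 74.1% and 68.2% in LZ1 and LZ2. Introns and intergenic sequence were not searched, and reads with a different last base are among the unmatched ones. Long noncoding RNAs in sense orientation accounted for 6.07% and 5.47%, and protein-coding transcripts in sense orientation for 2.27% and 2.49%. Reads matching snRNA made up 0.818% and 1.55%, most of them the single sequence described above. Reads matching several genes were lower in RS, at 0.924% against 1.57%.

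Next, reads that matched 1 annotated gene only were summed by gene. The 87 genes with at least 100 RPM in either library held 8.11% of 24–33 nt reads in PD and 7.86% in RS. Of these, 4 (4.60%) were more than 2-fold lower in RS and 3 (3.45%) more than 2-fold higher, 8.05% in all. Between LZ1 and LZ2, 15 of 250 genes differed by this much, 11 of them lower in LZ1. The median log2 difference was 0.18 for all reads, −0.60 for 24–28 nt reads and 0.46 for 29–33 nt reads. The shorter reads lay below the longer ones in 85 of 87 genes, and the mean length was greater in RS in 85, with a median of 0.50 nt. The shift in length was thus present in nearly all of these 87 genes, while their totals mostly differed by less than 2-fold. Among 404 genes with at least 10 RPM, the mean length was greater in RS in 369. Of these 404, 18.1% differed by more than 2-fold, against 7.18% of 2172 between LZ1 and LZ2.

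For the 10 genes with the highest mean level, the sequence shown is the most abundant one within a single exon and outside UTRs. Sequences in a UTR or across exons were passed over. The first base is in capitals, along with the base at position 10 where that is A. Of these 10 sequences 8 begin with T in DNA letters, that is U in the RNA, and 3 carry A at position 10.
Gm49794: Tatgagctctatcgggtttctgaaccctgg
Gm21269: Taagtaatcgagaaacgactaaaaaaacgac
Gm5878: TagaagacgAgtttggactgagcgaaattc
1700001L05Rik: Taggaacatgactgctttgtaaagggc
4933440M02Rik: Tatgatttcttgaatcttgtagacaaagt
Gm10619: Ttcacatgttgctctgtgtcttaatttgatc
5330409N07Rik, antisense: GaccatttcActcagactgtaaccatgac
1700006A11Rik: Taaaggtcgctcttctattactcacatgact
D130017N08Rik: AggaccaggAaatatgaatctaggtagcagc
Gm30132: Tctttccgtgtgtgctgtgacattttgtc

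These sequences lie at chr17:27357417-27357446 (+, exon 1 of 2), chr7:73819463-73819493 (+, exon 1 of 4), chr6:85112878-85112907 (−, exon 3 of 3), chr15:83354332-83354358 (−, exon 3 of 3) and chr7:125329822-125329850 (−, exon 3 of 3), in the order printed. The remaining ones lie at chr7:73809189-73809219 (−, exon 4 of 4), chr12:98447235-98447263 (+, opposite the single exon), chr3:124406421-124406451 (−, coding part of exon 11 of 12), chr5:143758437-143758467 (+, exon 1 of 2) and chr8:93419671-93419699 (−, exon 4 of 4). Of the 10 genes, 8 are annotated as long intergenic noncoding RNAs, 1700006A11Rik as protein-coding and 5330409N07Rik as a locus still to be checked by experiment.

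Gm49794, the leading gene, stood at 12169 RPM in PD and 6542 RPM in RS, against 14579 RPM and 10557 RPM in LZ1 and LZ2. Its reads of 24–28 nt were lower in RS, at 2250 RPM against 7749 RPM, while its reads of 29–33 nt hardly differed, at 4292 RPM against 4420 RPM. Its printed sequence, 30 nt long, was higher in RS, at 1231 RPM against 592.5 RPM, and supplied 18.8% of the gene's reads there against 4.87% in PD.

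A pair of divergently transcribed neighbours on chromosome 7, Gm21269 (chr7:73816546-73838898, +) and Gm10619 (chr7:73781429-73816503, −), differed little in total. Gm21269 had 8627 RPM in PD and 8503 RPM in RS, and Gm10619 had 2669 RPM and 2173 RPM. In both, reads of 24–28 nt were lower, from 3508 RPM to 1757 RPM and from 1092 RPM to 527.6 RPM, and reads of 29–33 nt were higher, from 5119 RPM to 6745 RPM and from 1577 RPM to 1645 RPM.

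Among the other leading genes, Gm5878 was higher in RS, with 4130 RPM against 2853 RPM, of which the printed 30 nt sequence alone gave 1590 RPM and 953.4 RPM. 1700001L05Rik was lower, with 2447 RPM against 3643 RPM, and its printed 27 nt sequence had 110.2 RPM against 344.7 RPM. Longer printed sequences did not all go up, since that of 1700006A11Rik, 31 nt long, had 88.2 RPM in PD and 38.8 RPM in RS, and that of Gm10619, also 31 nt, had 232.6 RPM and 209.1 RPM. The leading genes 4933440M02Rik, 5330409N07Rik (antisense) and Gm30132 were 1.24-, 1.33- and 1.25-fold higher in RS, and 1700006A11Rik and D130017N08Rik differed by less than 0.05 on the log2 scale.

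**Figure D4:**
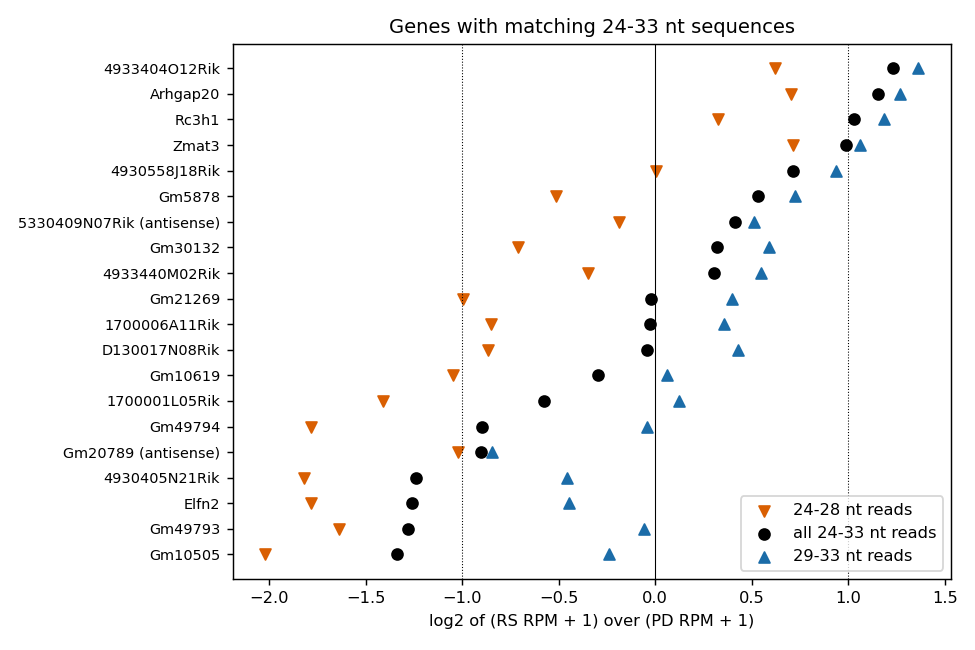
log2 of (RS RPM + 1) over (PD RPM + 1) (x axis) for the 20 named genes, for 24–28 nt reads (down triangles), 29–33 nt reads (up triangles) and all 24–33 nt reads (circles); dotted lines mark a 2-fold difference. In every named gene the 24–28 nt value lies left of the 29–33 nt value.

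The genes with the largest falls lay partly in 1 stretch of chromosome 17. Gm10505 had 1991 RPM in PD and 788.6 RPM in RS (log2 −1.33), and Gm49793 had 764.7 RPM and 313.9 RPM (−1.28). Together with Gm49794 they lie within chr17:27308316-27367492, with Gm49793 on the minus strand and the other two on the plus strand. The next were Elfn2, which encodes a leucine-rich repeat membrane protein, with 183.8 RPM and 76.3 RPM, and 4930405N21Rik with 387.0 RPM and 163.4 RPM. The fifth, antisense to the pseudogene Gm20789, had 137.3 RPM and 73.0 RPM, with values for short and long reads that lay close together (log2 −1.02 and −0.84).

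The genes with the largest rises were higher in both length classes. 4933404O12Rik, a long intergenic noncoding RNA, had 552.6 RPM in PD and 1302 RPM in RS (log2 1.23), and 119.9 RPM and 117.1 RPM in the LZ libraries. Its 24–28 nt reads were also higher, at 182.4 RPM against 118.3 RPM. Arhgap20, a protein-coding gene, had 333.3 RPM and 742.5 RPM (1.15), and Rc3h1, which encodes the RNA-binding protein Roquin-1, had 51.0 RPM and 105.3 RPM (1.03). Zmat3, encoding a zinc finger RNA-binding protein, had 66.2 RPM and 132.5 RPM (0.99), and 4930558J18Rik had 63.8 RPM and 105.3 RPM (0.71). The 24–28 nt reads of 4930558J18Rik hardly differed, at 19.7 RPM in PD and 19.8 RPM in RS.

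When only 24–28 nt reads were counted, 22 of 54 genes were more than 2-fold lower and 0 higher, and when only 29–33 nt reads were counted, 0 of 74 were lower and 4 higher. Among reads with no match in the annotated transcripts, 24–28 nt reads likewise made up 36.8% in PD and 19.4% in RS. The gene counts were not scaled to reads of their length, so they cannot be told from the shift of the whole libraries. They have no test because there is 1 library per stage.

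Retrotransposon piRNAs were examined in the RPM tables, which are scaled to all reads of a library. The 262 retrotransposons summed to 15251 RPM in PD and 6533 RPM in RS, so PD was 2.33-fold higher (interval 2.32 to 2.35). LZ1 and LZ2 summed to 22092 RPM and 37677 RPM (LZ1 over LZ2 0.586), beside 0.428 for RS over PD. Retrotransposon reads made up 1.80% of 24–33 nt reads in PD and 0.786% in RS.

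Every class was lower in RS relative to library reads, whereas relative to the retrotransposon total of each library only SINE was lower (RS over PD 0.652) and LINE (1.15) and LTR (1.02) were not. LINE elements summed to 1748 RPM in PD and 858.7 RPM in RS (RS over PD 0.491), LTR elements to 12188 RPM and 5307 RPM (0.435), and SINE elements to 1315 RPM and 367.6 RPM (0.280). LTR elements made up most of the total in both libraries, at 79.9% and 81.2%. Within the total the share of SINE elements was 8.62% in PD and 5.63% in RS, and that of LINE elements 11.5% and 13.1%.

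Of 85 retrotransposons with at least 10 RPM in either library, 38 (44.7%) were more than 2-fold lower in RS and 0 were higher, with a median log2 difference of −0.85. RS was below PD for 72 of the 85. Relative to the retrotransposon total, 5 of 95 were more than 2-fold lower and 23 higher. Between LZ1 and LZ2, 33 of 94 (35.1%) differed by more than 2-fold, 31 of them lower in LZ1 and 2 (2.13%) higher. By class, 11 of 17 LINE, 21 of 62 LTR and 6 of 6 SINE elements were more than 2-fold lower in RS. Relative to library reads the direction was thus nearly uniform, as it was between the LZ libraries.

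**Figure D5:**
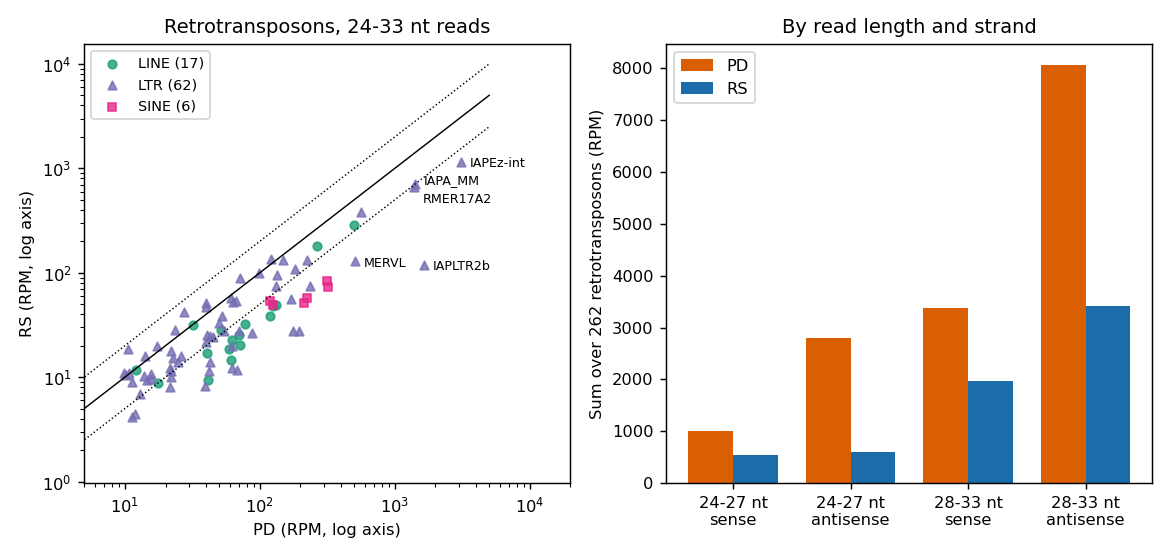
Left, level of 85 retrotransposons in PD (x axis) and RS (y axis), in RPM on log axes, by class; the solid line marks equal level and the dotted lines a 2-fold difference. Right, sum over 262 retrotransposons (y axis, RPM) by read length and strand, 1 library per bar. All points past a dotted line are below it, and antisense reads of 24–27 nt show the largest fold difference, from 2804 RPM in PD to 598.4 RPM in RS.

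Antisense reads accounted for most of the difference. They summed to 10872 RPM in PD and 4022 RPM in RS, and sense reads to 4379 RPM and 2511 RPM. The antisense share was 71.3% in PD (interval 71.1% to 71.5%) and 61.6% in RS (61.2% to 61.9%), a difference of 9.72 points, where LZ1 and LZ2 differed by 4.04 points.

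Relative to library reads, antisense reads of 24–27 nt had the largest fold difference, but this did not hold relative to reads of their length. At 24–27 nt, antisense reads were 4.69-fold higher in PD (2804 RPM and 598.4 RPM) and sense reads 1.82-fold (997.3 RPM and 548.9 RPM). All reads of 24–27 nt in the libraries, whatever they matched, were 2.26-fold higher in PD, so the antisense retrotransposon reads differed 2.07-fold relative to reads of their length and the sense reads 0.803-fold. At 28–33 nt, antisense reads were 8068 RPM in PD and 3424 RPM in RS, and sense reads 3382 RPM and 1962 RPM. All reads of 28–33 nt were lower in PD, with a ratio of 0.836, and relative to them antisense and sense reads were 2.82- and 2.06-fold higher in PD. The retrotransposon difference was thus not confined to the read lengths that were less common in RS.

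In the sum over all retrotransposons and relative to library reads, shorter reads did not share it, apart from antisense reads of 19–23 nt. Unlike those above, these values were not scaled to reads of their length. All reads of 11–18 nt made up 5.26% of the library in PD and 6.74% in RS, and those of 19–23 nt 7.82% and 8.23%. At 11–18 nt, sense reads of the retrotransposons summed to 10390 RPM in PD and 12391 RPM in RS and antisense reads to 10639 RPM and 11902 RPM. At 19–23 nt, sense reads were 3135 RPM and 3454 RPM, and antisense reads were 2476 RPM and 1692 RPM. SINE reads were an exception and were lower in RS at 11–18 nt too, at 186.4 RPM and 118.0 RPM sense and 1192 RPM and 724.5 RPM antisense, and at 19–23 nt sense, at 315.1 RPM and 208.1 RPM.

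The IAP family, young endogenous retroviruses that are a main target of piRNAs in the male germ line, supplied 49.6% of retrotransposon RPM in PD and 41.3% in RS. IAPEz-int, the internal sequence of the most common type, had 3099 RPM in PD and 1161 RPM in RS, with 4996 RPM and 9694 RPM in LZ1 and LZ2. IAPA_MM had 1408 RPM and 703.0 RPM, and IAPLTR3-int had 566.6 RPM and 381.6 RPM. All of these were mainly antisense, with 83.8%, 96.1% and 92.2% antisense reads in PD.

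The 5 elements with the largest fall were all IAP LTRs. IAPLTR2b stood apart, with 1642 RPM in PD and 119.0 RPM in RS (log2 −3.78), the second most abundant element of PD, and 860.2 RPM and 568.7 RPM in LZ1 and LZ2. Its reads were 99.5% antisense in PD and 96.5% in RS, and both lengths were lower, from 495.6 RPM to 18.96 RPM at 24–27 nt antisense and from 1138 RPM to 95.9 RPM at 28–33 nt antisense. IAPLTR2a had 193.7 RPM and 27.7 RPM (−2.76), IAPLTR2_Mm 176.8 RPM and 27.7 RPM (−2.63), and IAPLTR2a2_Mm 68.3 RPM and 11.7 RPM (−2.44). These 4 are related sequences and reads that match several were divided among them, so they are not independent. IAPLTR1_Mm had 62.0 RPM and 12.2 RPM (−2.26), and unlike the others most of its reads were sense, with 26.4% antisense in PD.

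The antisense share of IAP reads was 90.0% in PD and 87.5% in RS, a difference of 2.50 points that is smaller than the 12.3 points between LZ1 and LZ2. At 24–27 nt it was 91.0% in PD and 77.9% in RS, a difference of 13.1 points beside 11.7 points between LZ1 and LZ2. At 28–33 nt it was 89.7% and 88.9%.

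Other LTR elements were mostly lower as well. RMER17A2, which was mainly sense, had 1377 RPM in PD and 668.1 RPM in RS, with 10.3% and 5.19% antisense reads. MERVL, an endogenous retrovirus known for its activity in early embryos, had 503.7 RPM and 129.3 RPM, lower on both strands. MMERVK10C had 223.3 RPM and 132.3 RPM, and MMERGLN-int was under the minimum in both, with 1.58 RPM and 1.83 RPM.

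The 5 largest rises were LTR elements of modest level, none of them past 2-fold. RLTR44-int had 10.5 RPM in PD and 18.7 RPM in RS, RLTR41B 27.5 RPM and 42.1 RPM, and RLTR13D3 39.9 RPM and 51.5 RPM. RLTR13D3A had 70.9 RPM and 89.5 RPM, and RLTR22_Mus had 23.4 RPM and 28.3 RPM. The first 4 of these were mainly sense, with 0.663% to 15.9% antisense reads in PD, and RLTR41B, RLTR13D3 and RLTR13D3A were below 12 RPM in both LZ libraries.

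For L1, the active LINE family of the mouse, antisense reads were lower in RS, at 446.9 RPM against 1113 RPM, and sense reads less so, at 345.8 RPM against 499.2 RPM. The antisense share was 69.0% in PD (interval 68.4% to 69.7%) and 56.4% in RS (55.4% to 57.3%), whereas LZ1 and LZ2 had 45.1% and 44.7%. Short sense reads went the other way, since L1 sense reads of 24–27 nt were 113.5 RPM in PD and 151.9 RPM in RS while antisense reads of that length were 163.1 RPM and 86.1 RPM.

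In RS these short sense reads were mostly from ORF2, the part of L1 that encodes the reverse transcriptase and endonuclease. L1_Mm_orf2 had 23.2 RPM of 24–27 nt sense reads in PD and 51.6 RPM in RS, and L1_Mus3_orf2 had 23.3 RPM and 50.3 RPM, while their totals were lower, at 265.5 RPM and 179.3 RPM, and at 496.8 RPM and 289.7 RPM. At 19–23 nt, sense reads of LINE elements were likewise higher in RS, at 1275 RPM against 982.2 RPM. The 3′ ends were lower, with L1_Mus4_3end at 131.0 RPM and 48.7 RPM, L1Md_T_3end at 124.3 RPM and 47.6 RPM, and L1Md_F2_3end at 118.4 RPM and 38.7 RPM. The 5′ ends, which hold the promoters of the active types, had low levels, with L1Md_Gf_5end at 40.7 RPM and 17.2 RPM and L1Md_A_5end at 17.6 RPM and 8.88 RPM.

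All 6 SINE elements, short nonautonomous elements that use the L1 machinery, were more than 2-fold lower in RS. B1_Mm had 319.4 RPM in PD and 72.8 RPM in RS, B1_Mus1 316.6 RPM and 83.8 RPM, and B1_Mus2 224.8 RPM and 57.0 RPM. B2_Mm2 had 211.0 RPM and 50.8 RPM, B2_Mm1t 124.5 RPM and 49.4 RPM, and B2_Mm1a 118.9 RPM and 53.7 RPM. The B1 elements were 3.78- to 4.39-fold lower and the B2 elements 2.21- to 4.15-fold lower, as ratios of RPM. Elements of 1 family are related and reads that match several were divided among them, so they are not independent. The antisense share of B1 was 75.1% in PD and 66.2% in RS, where LZ1 and LZ2 had 50.3% and 47.9%. That of B2 was 87.0% and 88.9%, where LZ1 and LZ2 had 14.96% and 17.1%. Single B2 elements differed in direction. B2_Mm2 had 88.4% in PD and 79.0% in RS, B2_Mm1t 81.1% and 93.2%, and B2_Mm1a 90.6% and 94.3%.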

How the data were processed

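Small RNAs of PD and RS (1 library each) were analysed, with LZ1 and LZ2 as the replicate pair. The authors deposited, for each library, raw read counts of every distinct adapter-trimmed sequence (cutadapt, version not given in the sources used here), not filtered for noncoding RNA. They also deposited RPM tables: after removal of abundant noncoding RNAs and miRNAs, SeqMap aligned the rest, with mismatches permitted, to consensus sequences of retrotransposons, shared a read among equal best matches, and scaled to library reads. A consensus stands for many copies, so it has no genome position.

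From the counts, RPM relative to 24–33 nt reads was computed (Python 3.11.15, numpy 2.4.6, pandas 2.3.3). Features needed 10 RPM in either library (genes 100 RPM), folds used log2(RPM + 1) and a 2-fold threshold. Sequences were matched over their whole length, with no mismatch, to GENCODE vM21 transcripts (GRCm38); reads whose last base differed, and those whose first 24 nt occurred in over 20 genes other than structural RNAs, counted as unmatched. miRNA reads were matched by the first 18 nt of RefSeq mature sequences. Genes on chromosome 18 were not analysed here. Shares have 95% Wilson intervals and ratios exact binomial ones (scipy 1.17.1). For divided reads these rest on RPM converted to reads.

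Named retrotransposons were the 5 highest in PD per class, the 5 largest falls and rises, and a set list. Named sequences were the 10 highest, and the 5 largest falls and rises over 100 RPM. Named genes were chosen likewise, after the data had been seen, as were the printed length pairs (ends with 100 RPM in both, forms over 20 RPM). Members and lists were chosen with earlier results of these data known.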

Additional observations from a re-analysis of the deposited data

Results flagged for a closer look

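Among the 6 rows of the RPM tables that are not retrotransposons, 2 had 24–33 nt reads above the level that 3 reads give (0.226 RPM in PD and 0.239 RPM in RS). BC1_Mm, a noncoding RNA of neurons and germ cells, had 2.71 RPM in PD and 0.56 RPM in RS, against 22.2 RPM and 27.04 RPM in LZ1 and LZ2. MMSAT4, a satellite repeat, had 2.71 RPM in PD and 1.12 RPM in RS. These rows were in no comparison of the report.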

How the results depend on the processing

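No paired analysis was possible because each stage is 1 library and the labels give PD and RS no replicate number. For the same reason no library could be left out. Of 95 values under alternatives, 35 moved by less than their margin, 58 moved by more and 2 reversed; settings marked with a plus below were chosen after seeing the data, and the cause of each shift was not tested.

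RS over PD for all retrotransposons was 0.436 per 24–33 nt reads, 0.360 per miRNA reads, 0.442 without the most abundant element, and 0.302 and 0.470 in 24–27 and 28–33 nt reads (+). For LTR it was 0.443, 0.366, 0.456, 0.252 and 0.499 in the same settings, for LINE 0.413, 0.455, 0.816 and 0.422 in those after the first, and for SINE 0.235, 0.296 and 0.292 per miRNA reads, without the top element and at 24–27 nt. Scaled to the retrotransposon total, LINE (1.15) and LTR (1.02) reversed and SINE was 0.652, and of 95 elements 5 were lower and 23 higher. That scaling sets the total equal by construction. With sense reads only, 22 of 56 elements (39.3%) were lower.

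The antisense difference of IAP was −3.03 points as a mean over elements and −3.79 without the top element, which for B1 gave −11.4 and for B2 8.03. Counting distinct sequences, RS minus PD was −11.0 points at 25–28 nt, 12.8 at 29–32 nt, 1.29 for U first and 1.24 for A at position 10. Without the 100 most abundant sequences these were −16.7, 18.3, 0.195 and 1.45.

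Shared sequences were 29.8% of PD and 34.9% of RS with all reads, 50.7% and 56.7% with at least 2 reads, 38.1% and 40.5% by first 20 nt, and 31.9% and 33.7% at 26–31 nt. The rank correlation was 0.46 at 1 RPM, 0.64 by first 20 nt, and 0.49 and 0.62 in 24–28 and 29–33 nt sequences (+). Sequences lower and higher numbered 124 and 192 at 100 RPM, 22346 and 11454 at 1 RPM, and 5600 and 5088 by length class (+); 1644 were higher by first 20 nt. At 100 RPM the median length difference of 5′ ends was 0.19 nt. Genes lower and higher were 44 (10.9%) and 29 (7.18%) of 404 at 10 RPM (+), and 22 and 0 of 54 in 24–28 nt reads (+). In 29–33 nt reads (+), 0 of 74 were lower.

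Depth limits statements on rare sequences: most sequences of 1 read cannot be called absent from the other library.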
